A study of Mus musculus with 20 samples.

Results

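The skeletal muscle genes followed here were 39 genes of the contractile apparatus and metabolism of striated muscle fibers, given as a list of gene symbols, and all 39 were found among the 35226 genes of the count table. They were measured by poly(A) RNA sequencing in 20 tumors of LLC1, a mouse Lewis lung carcinoma cell line injected under the skin of the right flank of mice in a mixture of PBS and Matrigel. Per the study's methods the hosts were adult male C57Bl6/J mice, and treatment began once the tumors had reached a set volume. The 4 groups of 5 tumors were treated with vehicle, with KW6002, also known as istradefylline, which blocks an adenosine receptor, with cisplatin, a platinum drug that crosslinks DNA, or with both drugs, called cotreatment. All groups carried the same tumor line, and every tumor was 1 library. The labels do not say how the tumors were dissected or how much host tissue stayed attached. The title of vehicle replicate 1 was written in another form than those of the other vehicle tumors, and its agent was labelled vehicle like theirs.

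Skeletal muscle fibers contract when myosin of the thick filament pulls on actin of the thin filament, under the control of calcium that is released from the sarcoplasmic reticulum and sensed by troponin. Fast and slow fibers carry different isoforms of the myosin heavy chains, the troponins and myosin binding protein C, so that the ratio of such isoforms describes the fiber type. LLC1 is a carcinoma line, and mouse skin lies over a thin sheet of skeletal muscle, the panniculus carnosus. Counts per gene do not tell RNA of host fibers from RNA of tumor cells.

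Promoter sequence is shown for 5 members on which the results below turn. Any link between its sites and the levels in these tumors was not tested. The windows are the 250 bases before the annotated start in RefSeq, build GRCm38.p6, written 5′ to 3′ on the strand of the gene. Capitals mark every E-box (CANNTG), the kind of site that myogenic helix-loop-helix factors such as MyoD bind. Acta1 encodes the actin of the skeletal thin filament (chr8:123894776-123895025 on the minus strand), Ckm the muscle creatine kinase (chr7:19410844-19411093 on the plus strand), Myh4 the myosin heavy chain of the fastest fibers (chr11:67237562-67237811 on the plus strand), Pygm the glycogen phosphorylase of muscle (chr19:6384158-6384407 on the plus strand) and Trim63 the ubiquitin ligase MuRF1, which marks muscle proteins for breakdown (chr4:134314870-134315119 on the plus strand).
Acta1: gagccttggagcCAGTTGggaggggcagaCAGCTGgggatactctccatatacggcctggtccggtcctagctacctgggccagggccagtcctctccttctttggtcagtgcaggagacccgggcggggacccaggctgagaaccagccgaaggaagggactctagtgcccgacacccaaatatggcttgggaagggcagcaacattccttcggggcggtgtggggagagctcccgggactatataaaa
Ckm: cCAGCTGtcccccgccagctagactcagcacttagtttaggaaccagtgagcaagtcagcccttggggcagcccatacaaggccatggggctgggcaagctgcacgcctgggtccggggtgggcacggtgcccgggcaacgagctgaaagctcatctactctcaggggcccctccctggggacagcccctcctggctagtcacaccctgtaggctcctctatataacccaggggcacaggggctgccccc
Myh4: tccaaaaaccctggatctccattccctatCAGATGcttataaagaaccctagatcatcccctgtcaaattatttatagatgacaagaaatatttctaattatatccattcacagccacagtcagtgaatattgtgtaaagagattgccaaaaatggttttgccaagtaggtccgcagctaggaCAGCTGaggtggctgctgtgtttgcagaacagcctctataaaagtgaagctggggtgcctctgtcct
Pygm: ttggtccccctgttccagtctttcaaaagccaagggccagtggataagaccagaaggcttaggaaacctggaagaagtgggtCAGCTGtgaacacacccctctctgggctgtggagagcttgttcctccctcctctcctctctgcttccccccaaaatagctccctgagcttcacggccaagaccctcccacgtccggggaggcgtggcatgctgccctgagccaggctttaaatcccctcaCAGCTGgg
Trim63: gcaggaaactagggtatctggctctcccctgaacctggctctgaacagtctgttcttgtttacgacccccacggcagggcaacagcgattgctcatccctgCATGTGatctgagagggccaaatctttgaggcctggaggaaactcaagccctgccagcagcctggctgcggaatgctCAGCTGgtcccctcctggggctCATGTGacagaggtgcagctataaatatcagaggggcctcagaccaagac

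Of the 39 members, 31 had such a window, and Myot, Neb, Myoz1, Actn3, Tnnt3, Tcap, Xirp1 and Tnni2 had none. Searched on both strands, an E-box occurred in 27 of 31 windows (87.1%), against 69.3% of the windows of 27025 genes. The form CAGCTG, which is itself an E-box and is therefore counted in both, occurred in 16 of 31 (51.6%), against 14.7% of all genes. It was present in each of the windows printed above. TATAAA occurred in 8 of 31 (25.8%) against 14.3%, the MEF2 motif in 2 of 31 (6.45%) against 0.592% and the CArG box, bound by serum response factor, in 3 of 31 (9.68%) against 1.62%. These matches describe letters in the windows and not occupied sites.

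Total reads per tumor ranged from 28.4 to 41 M, and no column duplicated another. Of a list of 6 genes, epithelial ones and vimentin, the keratins Krt8 and Krt18 had at least 2952 and 6955 reads in every tumor and Vim, which stromal cells also express, at least 79076. In the same list Krt19 had 44 to 312 reads, Cdh1 38 to 110, and Epcam 0 to 5, with 0 in 11 tumors. Filtering on low counts left 16665 genes for testing, 34 of the members among them. Myh7, Myl2, Myl3, Cav3 and Ckmt2 did not pass and were described without a test. At these depths a count of 3 reads, the limit that a count of 0 allows, corresponded to 0.0732 to 0.106 RPM.

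The amount of muscle RNA varied widely within each group, and the ranges of the groups overlapped. The members together took 44.4, 45.9, 150.8, 48 and 48 RPM, that is, reads in each M of all reads, in vehicle replicates 1 to 5. Under KW6002 they took 52.5, 43.2, 49.7, 45 and 537.1 RPM. Cisplatin tumors had 386.8, 43.8, 598.4, 67.8 and 471.5. The 3 groups thus each held tumors with few member reads and at least 1 with many. Cotreated tumors had 71.4, 47.7, 227.6, 2594 and 53.5 RPM, and their replicate 4 was the tumor richest in muscle RNA of the series. Even there the members were 0.259% of all reads. The group means were 67.4 ± 46.6 for vehicle, 145.5 ± 218.9 for KW6002, 313.7 ± 247.3 for cisplatin and 598.9 ± 1118 for cotreatment (SD, n = 5), whereas the medians were 48, 49.7, 386.8 and 71.4. Single tumors set much of these means: without KW6002 replicate 5 that of KW6002 was 47.6 RPM, and without cotreatment replicate 4 that of cotreatment was 100 RPM, below the cisplatin mean. The order of cisplatin and cotreatment therefore differed between mean and median. In bulk RNA, fewer muscle fibers in a tumor and less RNA per fiber cannot be told apart.

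A few members varied little with the rest, with a highest level of 1.93 times the median of the tumors for Eno3, 2.18 times for Tnnc1, 2.38 times for Tnni1 and 3.81 times for Tnnt1, against 710 times for Acta1. Eno3, the muscle form of the glycolytic enzyme enolase, had 830, 947, 1066, 1330 and 1064 reads under vehicle, 1103, 934, 1098, 982 and 1123 under KW6002, 1124, 1159, 1309, 1199 and 1406 under cisplatin and 1330, 1089, 963, 2440 and 1203 under cotreatment. It lay between 830 and 1406 reads in 19 of 20 tumors and above them in cotreatment replicate 4, and it made up 73.8% of all member reads in vehicle replicate 4 and 2.62% in cotreatment replicate 4. Without Eno3 the members took 15.6, 13.3, 116.2, 12.6 and 13.6 RPM under vehicle. The KW6002 tumors had 18, 13.3, 14.8, 13.7 and 497.5. Only replicate 3 of the first group and replicate 5 of the second were above the others of their group. Cisplatin tumors had 349.1, 14.3, 557.9, 30.3 and 431.4 RPM without Eno3. Cotreated tumors had 38.9, 17.2, 194.8, 2527 and 15.5. Thus 3 of 5 cisplatin tumors and 2 of 5 cotreated tumors were above 100 RPM, against 1 of 5 in each of the other groups, a limit chosen after the values were seen. The library codes in the labels fell into an earlier and a later run of numbers, and tumors at both ends of the range came from each: the highest was 349.1 in the earlier run and 2527 in the later.

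**Figure D1:**
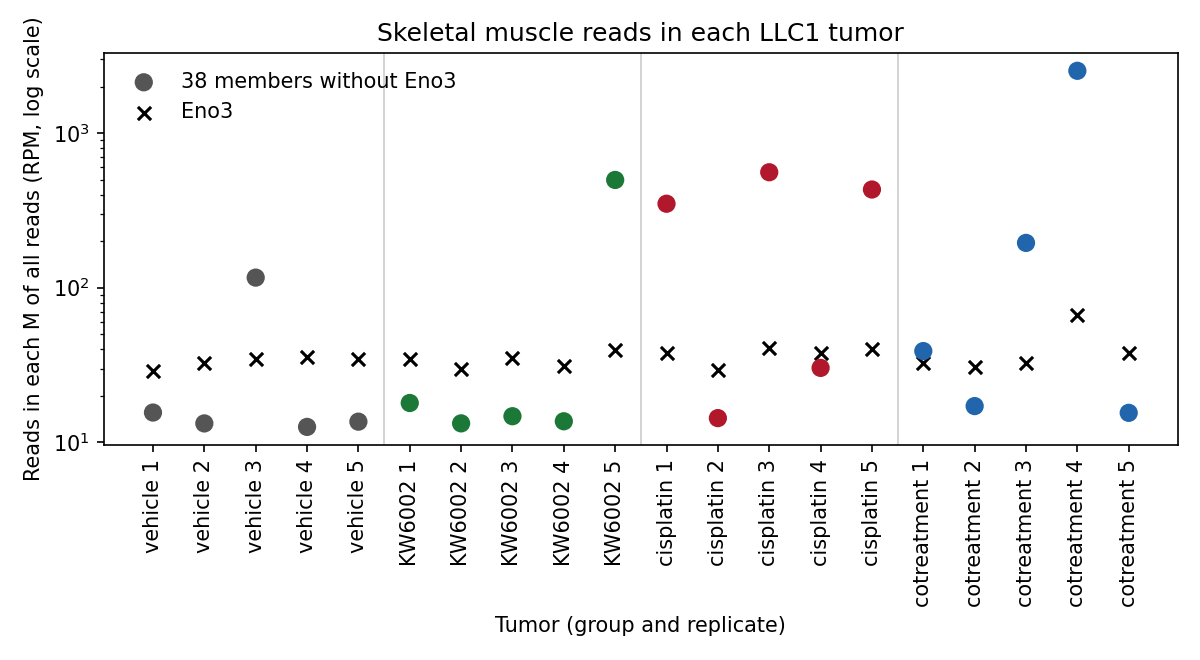
RPM (log scale) of the 38 members other than Eno3 (filled circles, colored by group) and of Eno3 (crosses) in each of the 20 tumors. The circles span 12.6 in vehicle replicate 4 to 2527 in cotreatment replicate 4, while Eno3 stays nearly level except in that tumor.

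Most other members rose and fell together. Of 39 members, 37 had their highest level in cotreatment replicate 4, and the exceptions, Xirp1 and Xirp2, which encode actin-binding repeat proteins of the attachment sites of muscle, had theirs in KW6002 replicate 5. The Spearman correlation of log2 CPM (counts per M reads of the scaled library) with Acta1 over 20 tumors had a median of 0.82 over the other 38 members, with a range from 0.39 for Myh7 to 0.97, and 25 of 38 were above 0.7. Pearson's r had a median of 0.94, and of 0.92 without the 2 tumors farthest from the median of Acta1. These values share the tumors, the depth and the group structure, and describe only that the members moved in the same libraries. In all, 22 members had no read in at least 1 tumor and 8 had at least 10 reads in every tumor (Mylpf, Tnnt3, Tnni2, Tnnt1, Tnnc1, Eno3, Pygm and Myoz1), so that the latter were not at 0 even where Acta1 had 5 reads.

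**Figure D2:**
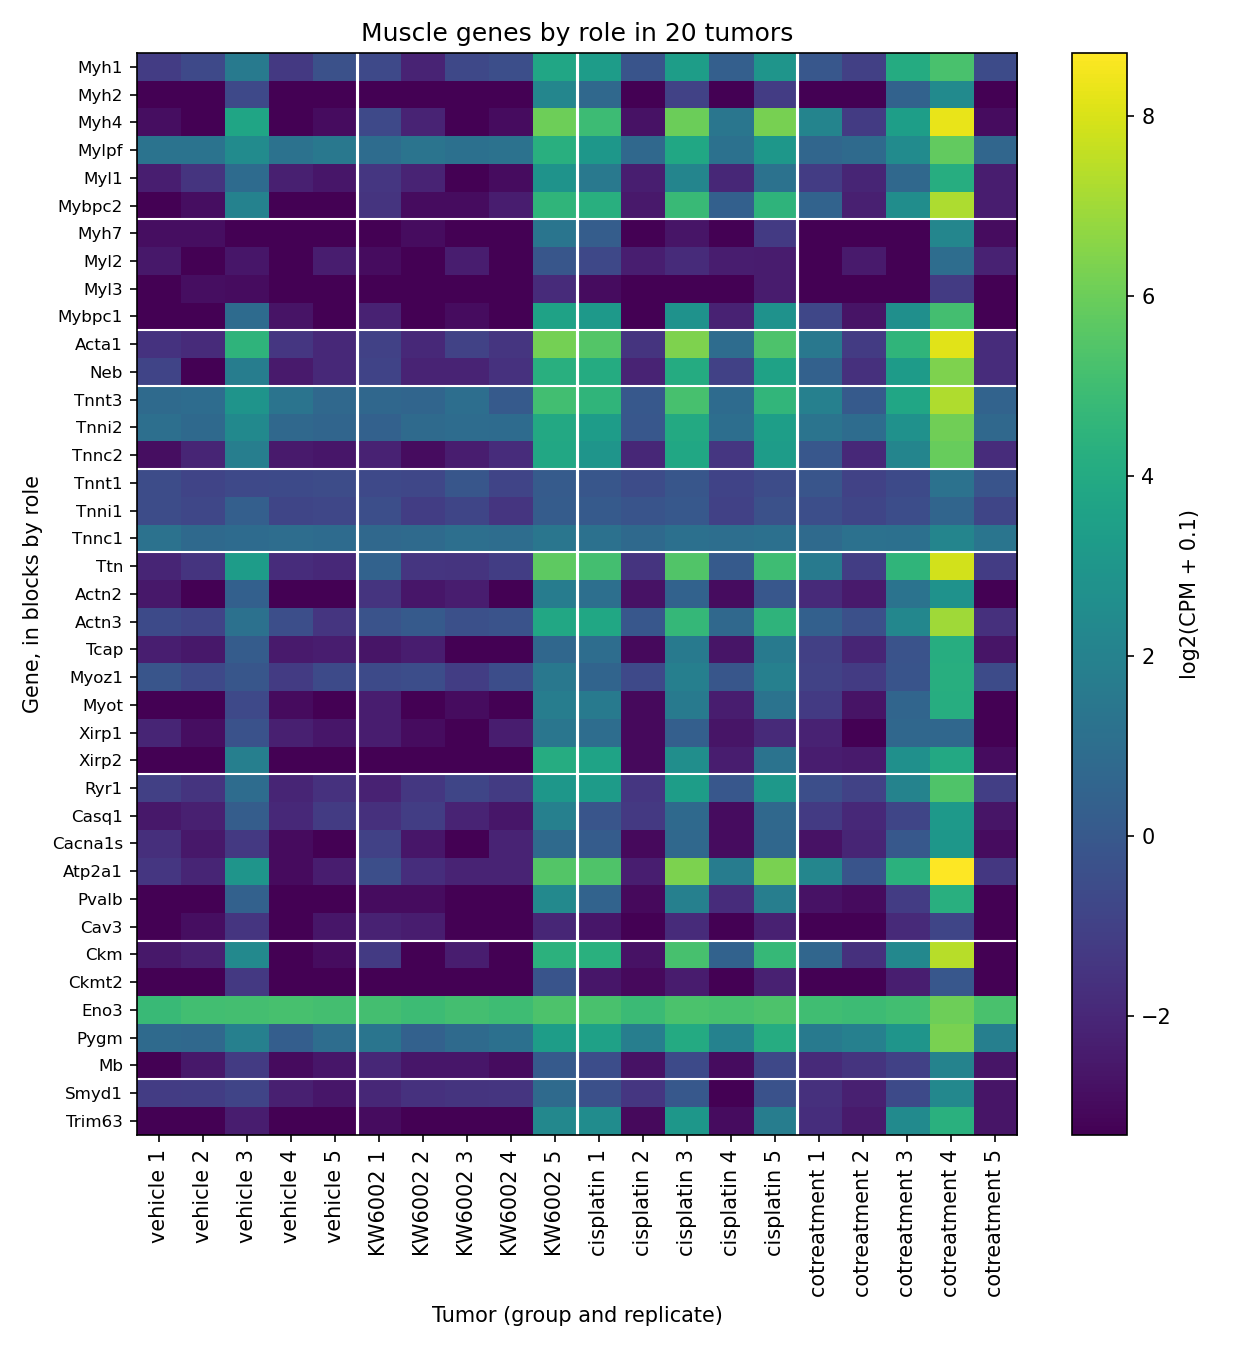
Level of each of the 39 members, as log2(CPM + 0.1), in the 20 tumors, with genes in blocks by role and white lines between groups and roles. The same few columns are bright for nearly all genes, whereas Eno3, Tnnt1, Tnni1 and Tnnc1 vary little.

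Among genes of the thin filament, Acta1 lies on chromosome 8 (123891769 to 123894751, GRCm38, minus strand). It had 7, 5, 680, 10 and 5 reads under vehicle and 13, 5, 13, 8 and 2005 reads under KW6002. In cisplatin tumors it had 1325, 10, 2778, 58 and 1425 reads, and under cotreatment 112, 12, 689, 10521 and 6. Each group reached down to 13 reads or fewer, so that no treatment separated from vehicle. Neb, which encodes the giant ruler protein nebulin, ranged from 0 to 2998 reads. Ckm, which buffers ATP in the fiber, had 2, 3, 151, 0 and 1 reads under vehicle and 10, 0, 3, 0 and 592 under KW6002. It had 582, 2, 1197, 41 and 926 reads under cisplatin and 60, 8, 142, 6202 and 0 under cotreatment. Ckm and Acta1 were high in the same tumors.

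Per transcript length in cotreatment replicate 4, most fast isoforms stood above their slow counterparts. On the scale of TPM, which divides reads by transcript length, Acta1 stood at 740.2, Atp2a1 at 471.2, the fast troponin T Tnnt3 at 389, the fast troponin C Tnnc2 at 291.1, Ckm at 230.1, Myh4 at 205.6 and the fast regulatory light chain Mylpf at 204.7. The slow isoforms were lower than these, with Mybpc1 at 29.8, Tnnc1 at 16.3, Tnnt1 at 3.97, the slow and cardiac light chains Myl2 at 3.77 and Myl3 at 0.635, Myh7 at 2.05 and Tnni1 at 1.56. Not every fast isoform was above every slow one: Myh1 stood at 23.4 and Myh2 at 2.91, both below Mybpc1.

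Fiber type was read first from the myosin heavy chains. Myh2 (67171027 to 67197517), Myh1 (67200052 to 67224575) and Myh4 (67238029 to 67260446) lie next to each other on the plus strand of chromosome 11 and encode the heavy chains of type IIa, IIx and IIb fibers, from the slower to the faster of the fast types. Myh7 on chromosome 14 encodes the slow heavy chain, shared with the heart. Their transcripts are closely alike, and how the requirement for unique alignment split reads among them was not tested.

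Myh4 had 1, 0, 414, 0 and 1 reads under vehicle, 17, 4, 0, 1 and 1834 under KW6002, 907, 2, 2084, 84 and 2644 under cisplatin and 170, 12, 311, 11447 and 1 under cotreatment. Myh1 had 10, 15, 89, 11 and 21 reads under vehicle, 17, 4, 16, 20 and 384 under KW6002, 293, 30, 339, 37 and 265 under cisplatin and 35, 14, 497, 1375 and 18 under cotreatment. Myh1 thus kept 10 to 30 reads in the 8 tumors in which Myh4 had 0 to 2. Myh2 had 16 reads in vehicle replicate 3, 125 in KW6002 replicate 5, 46, 14 and 12 in cisplatin replicates 1, 3 and 5, 38 and 192 in cotreatment replicates 3 and 4, and 0 in the other 13 tumors. Myh7 had 1, 1, 0, 0 and 0 reads under vehicle, 0, 1, 0, 0 and 68 under KW6002, 32, 0, 2, 0 and 11 under cisplatin and 0, 0, 0, 163 and 1 under cotreatment. Slow heavy chain was therefore above 3 reads in 4 tumors.

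Shares were compared in the 9 tumors with at least 100 reads of the 4 heavy chains. Myh4 was the leading heavy chain in 8 of 9, with 79.8% in vehicle replicate 3, 76.1% in KW6002 replicate 5, 71%, 85.4%, 69.4% and 90.2% in cisplatin replicates 1, 3, 4 and 5, and 82.9% and 86.9% in cotreatment replicates 1 and 4. Cotreatment replicate 3 stood apart: Myh1 took 58.8% of its heavy chain reads (95% exact binomial interval 55.3 to 62.1) and Myh4 36.8% (33.5 to 40.1). In the other 8 tumors Myh1 lay between 9.04% and 30.6%. The upper end was 37 of 121 reads in cisplatin replicate 4. That is close to the 10 to 30 Myh1 reads of the tumors with almost no Myh4, which the shares do not subtract. Myh2 ranged from 0 to 5.19%. Slow Myh7 took 2.82% in KW6002 replicate 5 (2.2 to 3.56), 2.5% in cisplatin replicate 1 (1.72 to 3.52) and 1.24% in cotreatment replicate 4 (1.06 to 1.44), and 0.375% or less in the other 6. In vehicle replicate 3 it was 0 of 519 reads (upper bound 0.708%) and in cotreatment replicate 3 it was 0 of 846 (0.435%). The 2 groups with more than 1 tumor at this depth had a mean slow share of 0.74% for cisplatin and 0.412% for cotreatment, and the order turned with reads pooled over tumors, at 0.665% and 1.15%. Without cisplatin replicate 1 the mean was 0.152%, and without cotreatment replicate 4 it was 0. No test was made of these shares. The vehicle and KW6002 groups each had 1 tumor at this depth, so that their spread is not known. Intervals cover counting error only.

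**Figure D3:**
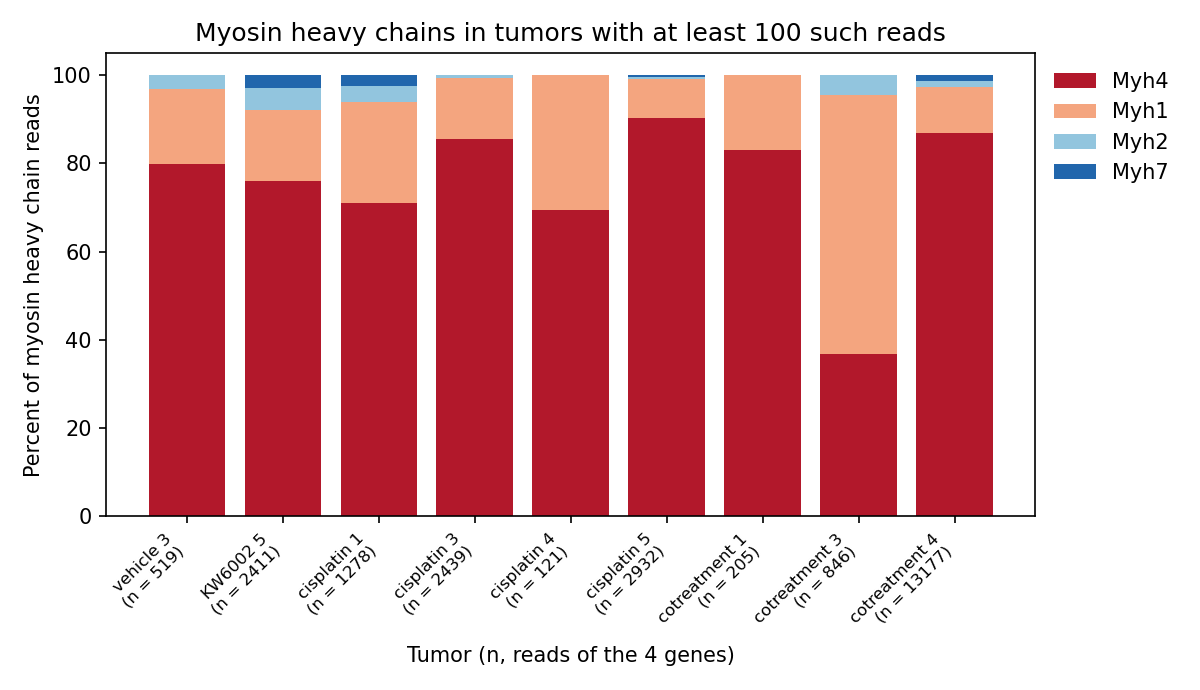
Percent of myosin heavy chain reads from Myh4, Myh1, Myh2 and Myh7 (stacked) in the 9 tumors with at least 100 such reads, with the number of reads under each bar. Myh4 leads in 8 tumors, and Myh1 leads with 58.8% in cotreatment replicate 3.

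Myosin binding protein C pointed to the same tumor. Mybpc1, the slow isoform that fast fibers also carry, made up 51.4% of Mybpc1 and Mybpc2 reads in cotreatment replicate 3 (46.1 to 56.7), against 18.9% in cotreatment replicate 4 and 34.8% in KW6002 replicate 5, the extremes of the other 6 tumors at this depth. The slow troponins varied little beside most other members, though more than Eno3. Tnni1, the slow troponin I, had 17, 14, 35, 17 and 15 reads under vehicle, 21, 11, 15, 8 and 29 under KW6002, 28, 30, 29, 13 and 24 under cisplatin and 26, 17, 18, 52 and 15 under cotreatment. Its fast counterpart Tnni2 had 57, 46, 158, 57 and 44 reads under vehicle, 40, 52, 57, 54 and 418 under KW6002, 291, 34, 523, 63 and 364 under cisplatin and 97, 65, 199, 2494 and 51 under cotreatment. Tnni1 stayed between 8 and 52 reads, and Tnni2 had at least 34 reads in every tumor and was highest where Acta1 was high. The slow share of troponin I was accordingly 21.1% in cotreatment replicate 1, with few muscle reads, and 2.04% in cotreatment replicate 4. Tnnc1, the troponin C of slow and cardiac muscle, had 46 to 78 reads in 19 tumors and 157 in cotreatment replicate 4, and Tnnt1 had 13 to 33 reads in 19 tumors and 81 in that tumor. Ratios of slow to fast troponins in these tumors therefore moved with the amount of muscle.

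Calcium handling was led by Atp2a1, the calcium pump of the sarcoplasmic reticulum of fast fibers. It had 8, 4, 234, 1 and 3 reads under vehicle, 21, 6, 4, 4 and 1243 under KW6002, 1221, 4, 2634, 105 and 2756 under cisplatin and 186, 28, 592, 15160 and 9 under cotreatment. Pvalb, the calcium buffer parvalbumin of the fastest fibers, had 38 reads in vehicle replicate 3 and 0 in the other vehicle tumors. It had 1, 1, 0, 0 and 137 reads under KW6002, 39, 1, 123, 6 and 119 under cisplatin and 2, 1, 10, 706 and 0 under cotreatment. Both genes were high where Acta1 was high. Cotreatment replicate 3 had 10 Pvalb reads beside 689 of Acta1, while vehicle replicate 3 had 38 beside 680. The calcium release channel Ryr1 ranged from 4 to 1505 reads, its voltage sensor Cacna1s from 0 to 297, the calcium store protein Casq1 from 1 to 315 and the caveolin Cav3 from 0 to 17.

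Treatment effects on single members were tested with edgeR's quasi-likelihood model fitted to all 16665 genes, with Benjamini-Hochberg adjustment, and a gene was called at an adjusted P value under 0.05 and an absolute log2 fold change of at least 0.32. The joint test used the adjusted P value alone. For any difference among the 4 groups, 1 of 34 members passed, against 35.7% of all genes: Pygm (adjusted P = 0.0359). KW6002 against vehicle called 0 members, and 0% of all genes. At an unadjusted P under 0.05 it had 0 members and 339 genes, and DESeq2 called 0 members. There 33 of 34 members had a fold change above 0, with a median log2 fold change of 1.71, and without KW6002 replicate 5 this was 2 of 34 and a median of -1.15. Cisplatin against vehicle called 0 of 34 members, against 10.6% of all genes called and 6.01% called higher. All 34 had a fold change above 0, with a median log2 fold change of 2.54 against 0.00 over all genes, and of 2.23 to 4.35 without any 1 tumor (the highest without vehicle replicate 3). The smallest adjusted P value was 0.076, for Trim63, and 5 members had an unadjusted P under 0.05 (Trim63, Pygm, Actn3, Ryr1 and Atp2a1), against 30.9% of all genes. DESeq2 called these 5 of 34, against 11.5% of all genes. Without KW6002 replicate 5 edgeR called 1 member (10.2% of all genes), and without cotreatment replicate 4 it called 3 (10.5%). The number of members at an unadjusted P under 0.05 in edgeR also moved with single tumors. It was 15 without vehicle replicate 3, 10 without cotreatment replicate 4 and 1 without vehicle replicate 4.

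Cotreatment against vehicle called 4 of 34 members, all higher, against 23.5% of all genes called and 13.1% called higher. At an unadjusted P under 0.05 it had 21 of 34 members, against 44.7% of all genes. That number was 1 without cotreatment replicate 4 and 9 to 11 without any of vehicle replicates 1, 2, 4 and 5. It was 4 with the replicate block, 2 with limma voom and sample weights, 26 with DESeq2 and 29 with the code run as a term. The median log2 fold change was 3.59 against -0.02 over all genes, and 0.87 without cotreatment replicate 4. The called members were Pygm (log2 fold change 3.28 ± 0.98 SE, adjusted P = 0.0155), Trim63 (7.79 ± 2.63, 0.0297), Actn3, the alpha-actinin of fast Z discs (5.07 ± 1.74, 0.0319), and Mb, the oxygen store myoglobin (3.30 ± 1.23, 0.0447). These calls rested on 1 library: without cotreatment replicate 4, 0 members were called, and the log2 fold changes were 1.19 for Pygm, 5.88 for Trim63, 1.05 for Actn3 and 1.16 for Mb. Leaving out any of vehicle replicates 1, 2, 4 and 5 left 1, leaving out cotreatment replicate 2 or 5 gave 9, leaving out cotreatment replicate 1 gave 10, and leaving out vehicle replicate 3 or KW6002 replicate 5 gave 11, while 19.8% to 24.2% of all genes were called without any 1 tumor. DESeq2 called 18 of 34, against 23.7% of all genes, and the model with the code run as a term called 16 of 34, against 22.9%. The replicate block left 1 of 34, against 22.6% of all genes, and limma voom with sample weights left 0 of 34, against 25.9%. With no filter 1 of 39 was called, against 10.5% of all genes, and with at least 10 counts in every tumor 1 of 8, against 23.5%.

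Cotreatment against cisplatin called 0 members, against 4% of all genes, with a smallest adjusted P of 0.312 and 0 members at an unadjusted P under 0.05 in edgeR and in DESeq2, against 23.3% of all genes in edgeR. Cotreatment against KW6002 called 0 members, against 23.3% of all genes called and 12.6% called higher. The smallest adjusted P there was 0.0508, for Pygm, and 2 of 34 members had an unadjusted P under 0.05, against 44% of all genes. DESeq2 called 1, against 23.6% of all genes. Without KW6002 replicate 5 edgeR called 21 of 34, against 22.9% of all genes, and it called 1 without any of cotreatment replicates 1, 2, 3 and 5, against 19.6% to 22.8%. The interaction, which asks whether KW6002 acted differently in the presence of cisplatin, called 0 members, against 0.066% of all genes, with 0 at an unadjusted P under 0.05, against 12.2% of all genes. DESeq2 called 0 for it as well. The median log2 fold change was -0.76, with 11 of 34 members above 0. Without cotreatment replicate 4 it was -3.56, with 0 of 34 above 0 and 5 at an unadjusted P under 0.05 in edgeR. Without KW6002 replicate 5 it was 2.04, with all 34 above 0 and 0 at that P. With cotreatment replicate 4 and vehicle replicate 3 both left out, 19 of 34 were at that P, with a median of -5.21. Each of these fits called 0 members.

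**Figure D4:**
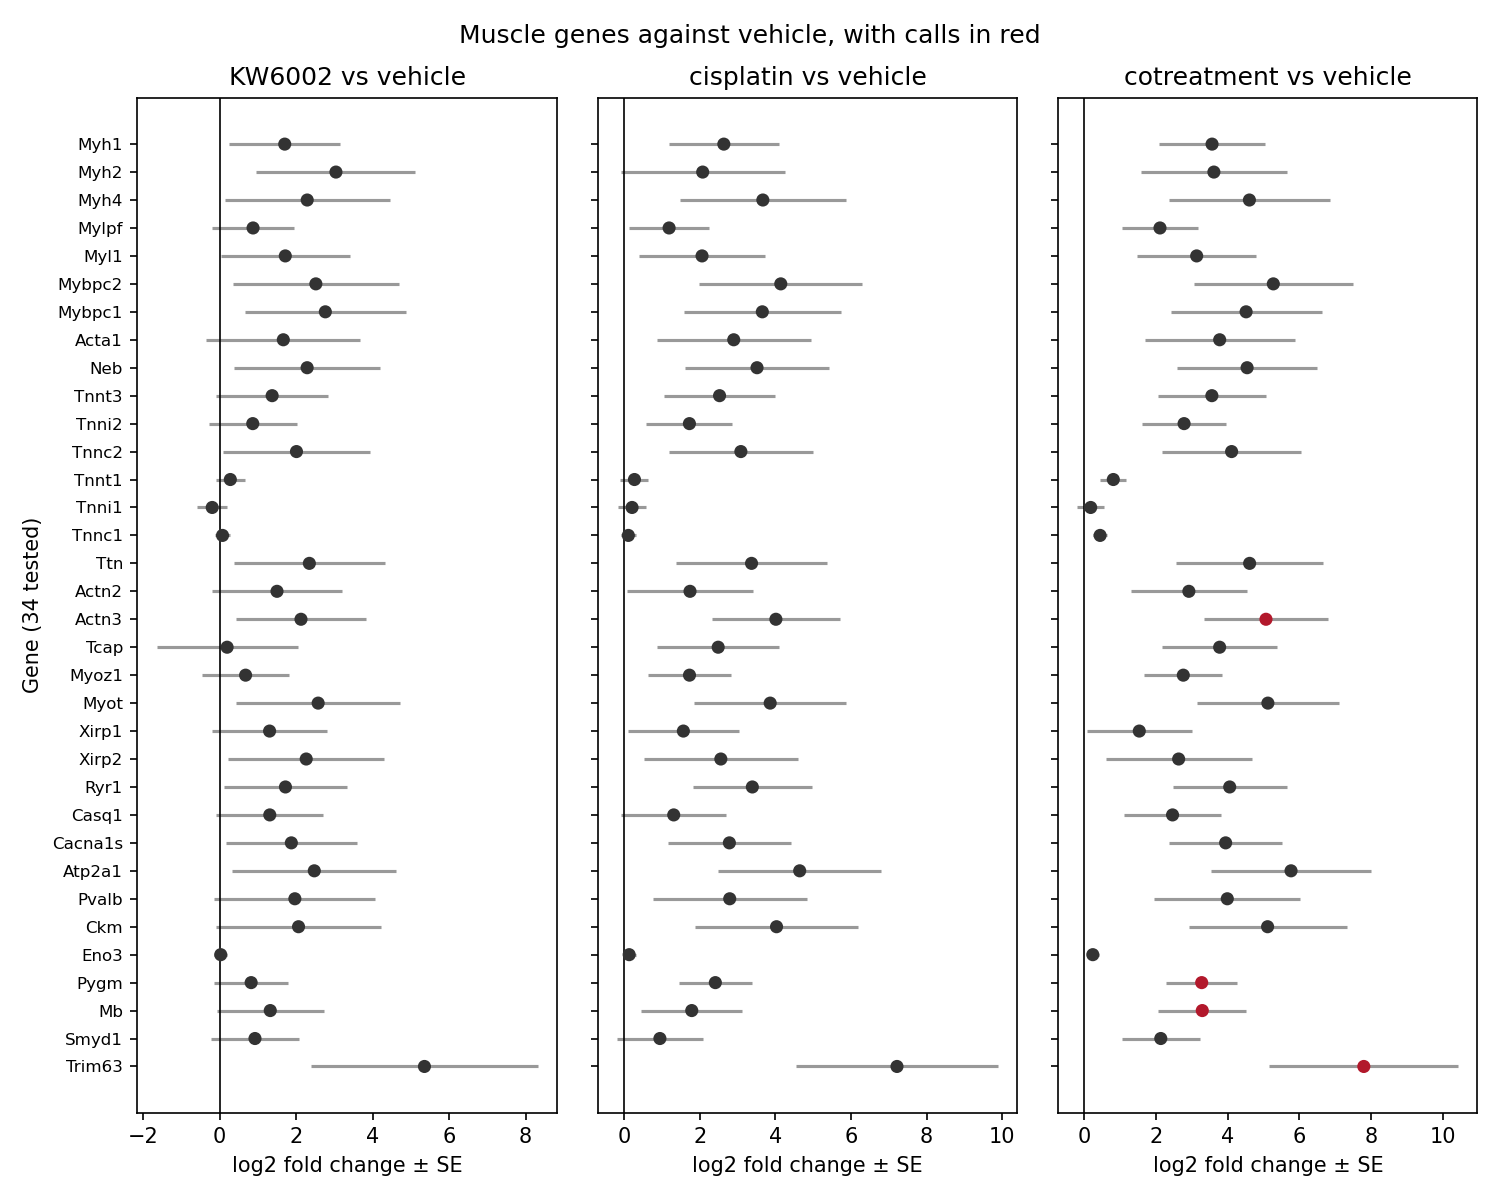
Log2 fold change against vehicle (edgeR, with its SE) of the 34 members tested, for KW6002, cisplatin and cotreatment, with called members in red. Errors are wide for most genes, and the 4 called members, Actn3, Pygm, Mb and Trim63, are in the cotreatment panel.

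Acta1 and Ckm were also tested without a count model, by an exact permutation test, two-sided, of 5 against 5 tumors, in which the smallest possible P is 0.00794. The mean log2 CPM of Acta1 was higher by 3.90 after cisplatin than after vehicle (exact permutation P = 0.0635, adjusted over 10 tests 0.357) and that of Ckm by 4.42 (exact permutation P = 0.0714, adjusted 0.357). After cotreatment the differences from vehicle were 2.78 for Acta1 (exact permutation P = 0.214) and 3.02 for Ckm (0.254 by the same exact test). For KW6002 they were 0.64 and 0.58 (exact permutation P = 0.524 and 0.683), and they turned to -0.89 and -0.91 without KW6002 replicate 5. None passed the threshold after adjustment. For cisplatin against vehicle the unadjusted exact permutation P was 0.0476 for Acta1 and 0.0397 for Ckm without vehicle replicate 3, and 0.0397 and 0.0238 without cisplatin replicate 2. The largest such P without any 1 tumor was 0.183 for Acta1 and 0.127 for Ckm. Between cotreatment and cisplatin the difference was -1.12 for Acta1 (exact permutation P = 0.651), while the fitted log2 fold change from edgeR had the opposite sign, 0.88 ± 1.82 (SE). The former averages logs over tumors and the latter compares mean counts, to which cotreatment replicate 4 contributed 10521 of the Acta1 reads.

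Pygm, which releases glucose units from glycogen, was the member called in both the joint test and cotreatment against vehicle. It had 48, 45, 113, 40 and 57 reads under vehicle and 80, 38, 54, 64 and 280 under KW6002. Cisplatin tumors had 342, 134, 534, 130 and 607 Pygm reads, and cotreated tumors had 124, 135, 221, 2833 and 115. Every cisplatin-treated tumor, with or without KW6002, was above every vehicle tumor in reads. In CPM, vehicle replicate 3 at 3.69 overlapped with the lowest cisplatin tumor at 3.4 and the lowest cotreated tumor at 3.03. In the 11 tumors with at most 13 Acta1 reads, a limit chosen after the values were seen, Pygm stood at 3.4 CPM in cisplatin replicate 2 and at 3.72 and 3.59 CPM in cotreatment replicates 2 and 5. In the same range of Acta1 it stood at 1.66, 1.58, 1.1 and 1.86 CPM in vehicle replicates 1, 2, 4 and 5 and at 2.49, 1.22, 1.71 and 2.05 CPM in KW6002 replicates 1 to 4. Other members with reads in every tumor did not all go this way. In cisplatin replicate 2, Tnni2 at 0.863 CPM and Tnnt3 at 0.889 CPM were below every vehicle tumor (lowest 1.435 and 1.598 CPM). Eno3 at 29.4 CPM lay within the range of vehicle there. The remaining members were not compared in this way. After cisplatin the log2 fold change of Pygm was 2.41 and not called (edgeR, adjusted P = 0.099). It was called by DESeq2 (adjusted P = 0.0258), with the code run as a term (edgeR, 0.042), with limma voom and sample weights (0.0328) and without cotreatment replicate 4. RLE scaling, no filter, at least 10 counts in every tumor and the replicate block did not call it. With the Acta1 level as a covariate, an alternative chosen after the data were seen, the log2 fold change of Pygm after cotreatment was 1.31 (edgeR, adjusted P = 0.0244), and after cisplatin it was 0.85 (adjusted P = 0.186). The joint call of Pygm was lost in that fit (edgeR, adjusted P = 0.0773), without a filter on low counts (0.0729) and with the replicate block (0.126). Its call after cotreatment was lost with the replicate block (edgeR, adjusted P = 0.0772), with limma voom and sample weights (0.0747) and without cotreatment replicate 4 (edgeR, 0.168). The call for any difference among groups was lost without any of vehicle replicates 1, 2, 4 and 5 or KW6002 replicates 1, 2, 3 and 4, with adjusted P values from edgeR of 0.0541 to 0.0676. Without KW6002 replicate 5 that test called 11 of 34 members, against 34.1% of all genes, and without cotreatment replicate 4 it called 3, against 34.7%.

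Trim63 stood at 0, 0, 0.0979, 0 and 0 CPM under vehicle, 0.0311, 0, 0, 0 and 4.85 CPM under KW6002, 5.75, 0.0254, 8.17, 0.0307 and 3.3 CPM under cisplatin and 0.196, 0.0827, 5.25, 20.04 and 0.0624 CPM under cotreatment. Vehicle replicate 3 thus had 3 reads of this breakdown gene beside 680 of Acta1. Pooled over tumors and scaled to library size, the ratio to the 3 vehicle reads was 169.9 for cisplatin (95% counting interval 57.8 to 826.2), 264.5 for cotreatment (90.2 to 1285) and 45.4 for KW6002 (15.2 to 222.9). These intervals hold no spread between tumors, and single tumors carried much of each ratio. All 3 vehicle reads came from replicate 3 and 134 of 135 KW6002 reads from replicate 5, without which the KW6002 ratio was 0.41 on 1 read. Without cotreatment replicate 4 that ratio was 62.3, and leaving out single cisplatin tumors gave 108.7 (without replicate 3) to 220.9. Actn3 had 16, 13, 65, 23 and 8 reads under vehicle, 24, 30, 21, 23 and 410 under KW6002, 427, 34, 858, 51 and 785 under cisplatin and 49, 24, 137, 4685 and 7 under cotreatment. Mb had 0, 2, 10, 1 and 2 reads under vehicle, 5, 2, 2, 1 and 27 under KW6002, 18, 2, 18, 1 and 18 under cisplatin and 7, 9, 12, 146 and 2 under cotreatment. Both overlapped with vehicle in each treatment group.

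The make-up of the muscle RNA was compared in the 8 tumors with at least 100 Acta1 reads, as the share of a gene in its own reads plus those of Acta1. Trim63 took 0.439% in vehicle replicate 3 (95% exact binomial interval 0.0907 to 1.28). It took 6.27% in KW6002 replicate 5 (5.28 to 7.38), and 11.4%, 8.86% and 7.47% in cisplatin replicates 1, 3 and 5. In cotreatment replicates 1, 3 and 4 it took 6.67%, 18.3% and 6.47%. The single vehicle tumor at this depth was below all 7 others, with no overlap of intervals, and with 1 such vehicle tumor this is a difference between tumors and not a test of treatment. With the Acta1 level as a covariate, the log2 fold change of Trim63 was 4.23 after cisplatin (edgeR, adjusted P = 0.00172) and 4.71 after cotreatment (adjusted P = 0.000183), where the vehicle level again rested on 3 reads.

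Vehicle replicate 3 was also the lowest of the 8 tumors for Actn3 (8.73%, against 16.6% to 35.5% in the others), Mybpc2 (15.2%, against 20.1% to 35.4%), Ttn (30.8%, against 33.8% to 51.9%) and Myot (2.3%, against 3.34% to 10.4%). Its interval was clear of all others for Actn3 and overlapped with at least 1 other for the rest of these. Atp2a1, given below, was also lowest in vehicle replicate 3, with an interval (22.8 to 28.6) clear of all others. Ckm, Pvalb, Xirp1 and Xirp2 were not lowest in that tumor. Ckm took 18.2% there and 17.1% in cotreatment replicate 3, Pvalb 5.29% there and 1.43% in cotreatment replicate 3, and Xirp1 3.13% there and 0.419% in cisplatin replicate 5. Xirp2 took 13.7% in vehicle replicate 3 and 19.1% in KW6002 replicate 5. It took 21.7%, 6.78% and 5.25% in cisplatin replicates 1, 3 and 5, and 3.45%, 21.4% and 5.05% in cotreatment replicates 1, 3 and 4. Both cisplatin arms thus held tumors at either end. Atp2a1 had its lowest share in vehicle replicate 3 again, with 25.6%, and took 38.3% in KW6002 replicate 5 and 46.2% to 65.9% in the other 6 tumors. Shares were taken only for the genes named in this and the preceding paragraph, which do not stand for the whole list. Tnni2, without a share here, had 158 reads beside 680 of Acta1 in vehicle replicate 3. In cisplatin replicate 3 it had 523 beside 2778, so vehicle replicate 3 was not its lowest tumor relative to Acta1. With 1 vehicle and 1 KW6002 tumor at this depth, these are differences between tumors and not a test of treatment.

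**Figure D5:**
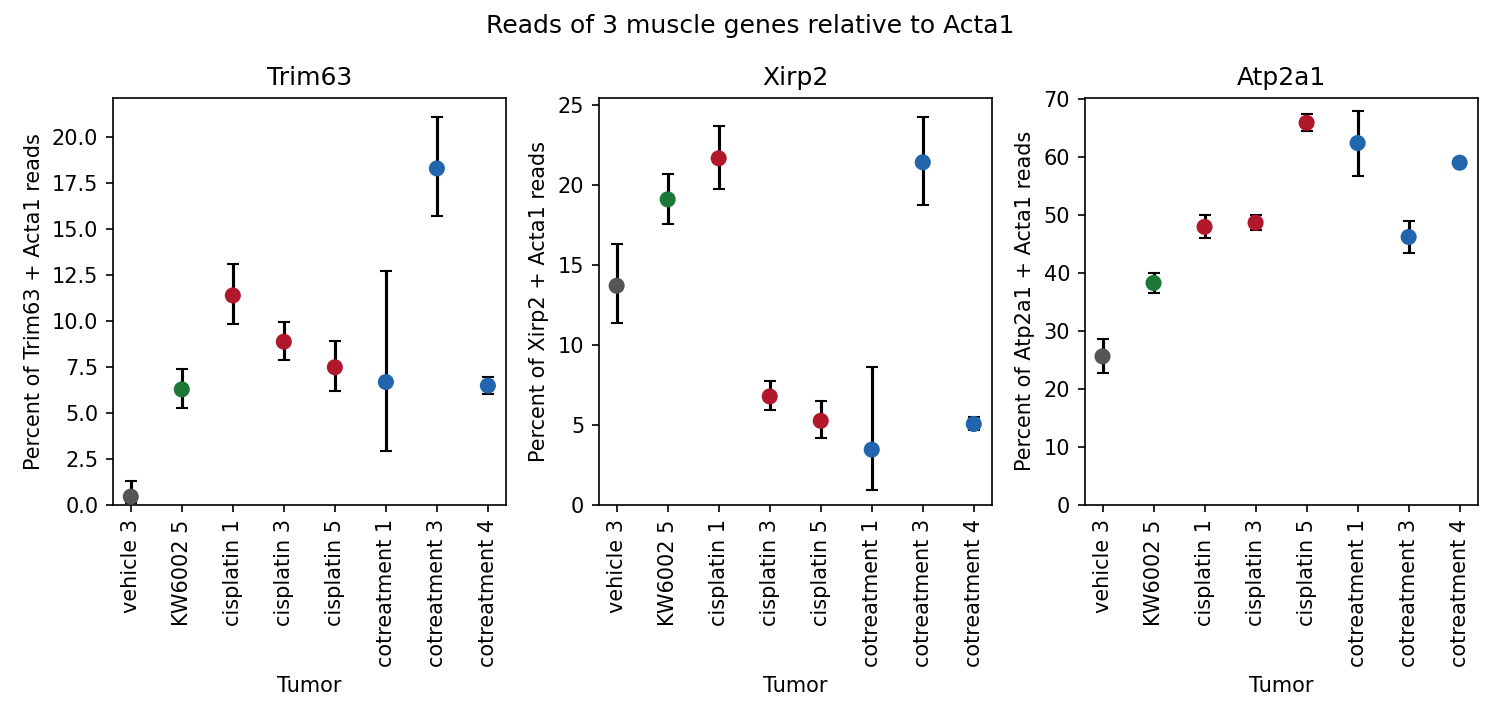
Reads of Trim63, Xirp2 and Atp2a1 as a percent of their own plus Acta1 reads, in the 8 tumors with at least 100 Acta1 reads, with 95% exact binomial intervals and points colored by group. Trim63 lies at 0.439% in vehicle replicate 3 and between 6.27% and 18.3% elsewhere, while Xirp2 spans 3.45% to 21.7% among tumors given cisplatin.

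The remaining members are given by their range over the tumors. Titin (Ttn), the spring of the sarcomere, ranged from 4 to 8460 reads, Tcap, which caps titin at the Z disc, from 0 to 653, the Z disc proteins Myot from 0 to 652 and Myoz1 from 11 to 669, and Actn2 from 0 to 6.94 CPM. The fast light chain Myl1 ranged from 0 to 655 reads and Mylpf from 47 to 2012, while the slow and cardiac light chains Myl2 and Myl3 reached 68 and 12. Among the fast isoforms, Tnnt3 ranged from 30 to 5698 reads, Tnnc2 from 1 to 2155 and Mybpc2 from 0 to 5362, and Mybpc1 ranged from 0 to 1247. Xirp1 reached 70 reads. Ckmt2, the mitochondrial creatine kinase, reached 31 reads, and Smyd1, a methyltransferase of developing and adult muscle, 177. Myl2, Myl3 and Ckmt2 were not tested, and none of the others in this paragraph was called in the 7 edgeR tests as designed. After cotreatment DESeq2 called Ttn, Tcap, Myot, Myoz1, Tnnt3, Tnnc2 and Mybpc2. The code run as a term called Tcap, Myot, Myoz1 and Mybpc2 there, while the replicate block and limma voom called none of them. With Acta1 as a covariate Mybpc2 was called after cisplatin and Mybpc2, Ttn and Myot after cotreatment. That fit called 3 of 34 members after cisplatin, against 10.6% of all genes, and 6 of 34 after cotreatment, against 23.7%. It is no independent support for the shares relative to Acta1, since only vehicle replicate 3 had more than 10 Acta1 reads in its group.

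A second list held 45 further skeletal muscle genes. Of these, 42 were highest in cotreatment replicate 4 and 29 had a Spearman correlation with Acta1 above 0.7. Of 35 tested, 3 were higher after cisplatin than after vehicle, where 6.01% of all genes were called higher, and 13 were higher after cotreatment than after vehicle, where 13.1% of all genes were called higher. Cotreatment against KW6002 called 5 of 35, all higher, against 12.6%, and the joint test 8 of 35, against 35.7%. The 3 after cisplatin, named after their values were seen, were Ampd1, the AMP deaminase of muscle (log2 fold change 3.11, adjusted P = 0.0266 in edgeR), Trim54 (2.68, 0.0116) and Asb5 (1.90, 0.0484). Ampd1 had 5, 3, 8, 6 and 3 reads under vehicle, 1, 9, 4, 3 and 26 under KW6002, 35, 47, 60, 17 and 83 under cisplatin and 37, 47, 33, 389 and 23 under cotreatment. Vehicle did not overlap with either cisplatin arm for this gene. The genes with the highest mean CPM in that list were Tpm2, Pfkm and Fbxo32, all expressed in every tumor with at least 472 reads. Fbxo32, the ubiquitin ligase atrogin-1, had 526, 562, 472, 773 and 776 reads under vehicle, 539, 694, 545, 641 and 639 under KW6002, 1109, 1015, 1033, 644 and 903 under cisplatin and 1241, 1232, 1077, 1920 and 869 under cotreatment. It was called higher after cotreatment than after vehicle (log2 fold change 0.86 ± 0.18 SE, adjusted P = 0.00111 in edgeR) and was not called after cisplatin, where 1 tumor lay within the range of vehicle.

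Several markers of precursor cells had few reads. Pax7, which marks satellite cells, reached 1 read, Myf5, Mymk and Mymx 2 reads, and Myod1 6 reads in any tumor. Myog, a regulator of fiber differentiation, had 10 reads in KW6002 replicate 5, 2 and 11 in cisplatin replicates 1 and 3, 5 and 3 in cotreatment replicates 3 and 4, and 0 in the other 15 tumors. Myf6, the regulator that adult fibers keep, reached 103 reads in cotreatment replicate 4. Of 14 genes in the list, 5 had at most 3 reads in every tumor, while Pax3, the most abundant, had 225 to 461 reads and Megf10 had 4 to 30. Chrna1, a subunit of the acetylcholine receptor, had 77 to 258 reads and was called higher after cotreatment than after vehicle (log2 fold change 0.65, adjusted P = 0.0123 in edgeR). It was the 1 gene called there of 4 tested in the list, against 23.5% of all genes.

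Outside all lists, the 10 genes whose log2 CPM was most alike to the mean of the tested members, by Pearson's r over 20 tumors among 16551 genes, were Myo18b (0.98), Ano5 (0.97), Klhl31 (0.97), Mypn (0.96), Pdlim3 (0.96), Eef1a2 (0.95), Lrrc2 (0.95), Ppp1r3a (0.95), Fbxo40 (0.94) and Smpx (0.94). They reached between 64 and 422 reads in their highest tumor.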

How the data were processed

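RNA was measured in 20 LLC1 tumors by stranded, poly(A)-selected sequencing. Per the labels and the study's methods, the authors aligned reads to mm10 with STAR, counted uniquely aligned reads per gene with HTSeq version 0.6.1p1 and deposited raw counts, the only values used. The strand option is not given in the sources used here, so overlapping genes on opposite strands may share reads. Ensembl IDs were matched to symbols, positions and lengths in GENCODE (35142 of 35226), and 0 sample columns were left unused.

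Counts were filtered with filterByExpr by group, scaled by TMM and fitted with edgeR version 4.0.16 (robust quasi-likelihood, R version 4.3.3) over all 20 tumors, with Benjamini-Hochberg adjustment over 16665 genes. Log2 CPM used a prior count of 2. On simulated data for cotreatment against vehicle (16475 genes, 200 changed), 93 of the genes changed 2-fold and 97 of those changed 4-fold were recovered, with 3 false calls. The changed genes were drawn at random from those above a minimum mean CPM. In the real comparison the SE of the log2 fold change was 2.09 for Acta1 and 2.2 for Ckm, against 0.168 for Eno3. The recovery therefore does not carry over to members with such wide errors. The test for any difference among the 4 groups recovered 94 and 97, with 11 false calls. The genes were changed in the cotreatment group only. KW6002 against vehicle thus held no changed gene to recover, and it gave 0 false calls. Exact permutation tests and binomial intervals used scipy version 1.17.1. Intervals cover counting error only, since reads carried no molecular identifiers. Model P values judge differences between groups against the spread between tumors. Permutation P values give the share of rearrangements of tumors between groups with a difference at least as large.

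The members and the 8 other gene lists were chosen with earlier results of these data known. Values in every tumor are given for Acta1, Ckm, Myh1, Myh2, Myh4, Myh7, Tnni1, Tnni2, Atp2a1, Pvalb, Trim63 and every called member. In other lists at most the 3 genes of highest mean CPM are named, and outside the lists the 10 genes most alike, with further names given for description after their values were seen. Alternatives were DESeq2 version 1.42.0, RLE scaling, no filter, at least 10 counts in every tumor, the code run as a term, a replicate block, limma voom (version 3.58.1) with sample weights and leaving out each tumor. Added after seeing the data were Acta1 as a covariate, leaving out cotreatment replicate 4 and vehicle replicate 3 together, and the minimum of 100 reads for shares.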

Additional observations from a re-analysis of the deposited data

Results flagged for a closer look

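In 42 of 60 sets of 5 tumors examined, the highest tumor was separated from the next by more than 0.71 of the range of its group (Dixon's criterion). For normally distributed values chance gives about 1 in 20 sets with such a gap at either end. CPM values here are skewed, with many tumors near 0, and the rate for such values was not measured. The genes are not independent of each other, since the same tumors recur. The members together reached 150.8 RPM in vehicle replicate 3, 537.1 RPM in KW6002 replicate 5 and 2594 in cotreatment replicate 4. Acta1 was 22.2 CPM in vehicle replicate 3, 72.5 CPM in KW6002 replicate 5 and 289.6 CPM in cotreatment replicate 4. Ckm was 4.93 CPM in vehicle replicate 3, 21.4 CPM in KW6002 replicate 5 and 170.7 CPM in cotreatment replicate 4. Myh1 was 2.91 CPM in vehicle replicate 3 and 13.9 CPM in KW6002 replicate 5. Myh2 was 0.522 CPM in vehicle replicate 3, 4.52 CPM in KW6002 replicate 5, 1.56 CPM in cisplatin replicate 1 and 5.28 CPM in cotreatment replicate 4. Myh4 was 13.5 CPM in vehicle replicate 3, 66.3 CPM in KW6002 replicate 5 and 315.1 CPM in cotreatment replicate 4. Myh7 was 2.46 CPM in KW6002 replicate 5 and 4.49 CPM in cotreatment replicate 4. Tnni1 was 1.14 CPM in vehicle replicate 3 and 1.43 CPM in cotreatment replicate 4. Tnni2 was 5.16 CPM in vehicle replicate 3, 15.1 CPM in KW6002 replicate 5 and 68.6 CPM in cotreatment replicate 4. Atp2a1 was 7.64 CPM in vehicle replicate 3, 45 CPM in KW6002 replicate 5 and 417.2 CPM in cotreatment replicate 4. Pvalb was 1.24 CPM in vehicle replicate 3, 4.95 CPM in KW6002 replicate 5 and 19.4 CPM in cotreatment replicate 4. Trim63 was 0.0979 CPM in vehicle replicate 3, 4.85 CPM in KW6002 replicate 5 and 20.04 CPM in cotreatment replicate 4. Actn3 was 2.12 CPM in vehicle replicate 3, 14.8 CPM in KW6002 replicate 5 and 128.9 CPM in cotreatment replicate 4. Pygm was 10.1 CPM in KW6002 replicate 5 and 78 CPM in cotreatment replicate 4. Mb was 0.327 CPM in vehicle replicate 3, 0.976 CPM in KW6002 replicate 5 and 4.02 CPM in cotreatment replicate 4. Vehicle replicate 3, KW6002 replicate 5 and cotreatment replicate 4 stood apart from the other tumors of their groups in nearly all of these sets, while cisplatin replicate 1 did so for Myh2.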

How the results depend on the processing

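In KW6002 against vehicle, cotreatment against cisplatin and the interaction, 0 members were called in every alternative run, where 0%, 1.38% to 6.14% and 0% to 1.69% of all genes were called. In cisplatin against vehicle (0 called), DESeq2 called 5, the code run as a term 1, limma voom with sample weights 1, Acta1 as a covariate 3, and the fit without the richest cotreated and vehicle tumors together 2. In cotreatment against vehicle (4 called) the same settings gave 18, 16, 0, 6 and 0, and no filter gave 1, as did at least 10 counts in every tumor. Cotreatment against KW6002 (0 called) gave 1 with DESeq2, with at least 10 counts and with the code run. For any difference among groups (1 called), DESeq2 gave 2, no filter 0, Acta1 as a covariate 4, without Pygm among them, and the fit without those tumors 3. Leaving out single tumors gave 0 to 3 calls for cisplatin against vehicle, 0 to 11 for cotreatment against vehicle, 0 to 21 for cotreatment against KW6002 and 0 to 11 for any difference. Over all these alternatives the share of all genes called was 4.17% to 12.2%, 10.5% to 25.9%, 10.6% to 27% and 14.7% to 43.9% in the latter 4 comparisons. The cause of these shifts was not tested.

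Replicate numbers did not pair the tumors: deviations of same-numbered tumors had correlations from -0.392 to 0.391 over 30 pairs (mean -0.00713). With the replicate block 1 member was called in cotreatment against vehicle and 0 for any difference, against 22.6% and 32.5% of all genes.

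With Acta1 as a covariate the log2 fold change turned negative for Myh2 (-0.69), Tnni1 (-0.26), Tnni2 (-0.56) and Mb (-0.050) after cisplatin and for Tnni1 (-0.23) and Pvalb (-0.49) after cotreatment. Leaving out single tumors, Pvalb after cotreatment ranged from -1.31 to 10.03 and Tnni1 from -0.20 to 0.52. In the exact permutation tests the difference of KW6002 from vehicle ranged from -0.89 to 1.92 for Acta1 and -0.91 to 1.69 for Ckm, and that of cisplatin from 3.13 to 5.17 for Acta1 (exact P from 0.0397 to 0.183) and 3.70 to 5.78 for Ckm (exact P from 0.0238 to 0.127). As TPM the mean share of the members was 142.6 for vehicle, 256.3 for KW6002, 482.1 for cisplatin and 892.4 for cotreatment, in the same order as in RPM. The slow share of heavy chain reads was 2.02% in the KW6002 group per kilobase and, with reads pooled over tumors, 1.15% in the cotreatment group, above the 0.665% of the cisplatin group. Depth limits Trim63, Myh2 and Myh7 in most tumors, where they had 3 reads or fewer.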

Other observations

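Markers of several other tissues were examined beside the muscle genes. Of 10 adipocyte genes, 0 had a Spearman correlation with Acta1 above 0.7, and Adipoq, the fat cell hormone adiponectin, stood at 26.6 CPM in vehicle replicate 2 and 12.8 CPM in KW6002 replicate 1, while vehicle replicate 3 had 0.49 CPM and cotreatment replicate 4 had 1.1 CPM. The summed CPM of the adipocyte list was 93.7 ± 147 for vehicle, 71.7 ± 64.1 for KW6002, 20.6 ± 9.46 for cisplatin and 50.1 ± 24.6 for cotreatment (SD, n = 5). The vehicle mean rested on replicate 2, and the medians were 28.6, 38.4, 15.9 and 39.9. Of 8 tested, edgeR called 0 in each of the 7 tests. For cisplatin against vehicle the median log2 fold change was -3.79, 5 of 8 had an unadjusted P under 0.05, against 30.9% of all genes, and DESeq2 called 3, against 11.5% of all genes. Of 10 epidermal genes found in the table (1 listed symbol was not found), 7 had at most 3 reads in every tumor. Of 9 cardiac genes, 3 had at most 3 reads in every tumor, and the most abundant was Tnni3, with 40 to 75 reads. In that list Ryr2 had a Spearman correlation with Acta1 of 0.70 on at most 7 reads per tumor, and Myl4 was called higher after cotreatment than after vehicle (log2 fold change 1.26, adjusted P = 0.000597 in edgeR). Myl4 was the 1 gene called there of 4 tested in the list, against 23.5% of all genes.

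Of 7 smooth muscle genes tested, 4 were lower after cisplatin than after vehicle, where 10.6% of all genes were called, among them Acta2, the smooth muscle actin (log2 fold change -0.73 ± 0.17 SE, adjusted P = 0.00519 in edgeR), and after cotreatment, where 23.5% of all genes were called, 4 were lower and 1 higher. Of 8 genes of Schwann cells, 5 were tested. Mbp alone was called against vehicle, higher after cisplatin (log2 fold change 0.38, adjusted P = 0.00563 in edgeR) and after cotreatment (0.48, 0.000276). The shares of all genes called there were 10.6% and 23.5%. The summed CPM of the list was 89.8 ± 6.93 for vehicle, 91.7 ± 9.52 for KW6002, 113.7 ± 3.6 for cisplatin and 120.5 ± 11.8 for cotreatment (SD, n = 5). Krt8, a keratin of simple epithelia, was higher after cisplatin (log2 fold change 0.53, adjusted P = 0.000288 in edgeR). It was the 1 gene called there of 5 tested in its list, against 10.6% of all genes. The summed CPM of keratins, adhesion genes and vimentin ranged from 3266 to 5258 over all tumors.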
